A study of Mus musculus with 132 samples.

Results

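The genes described here are 51 imprinted genes and imprinted noncoding RNAs of the mouse, chosen by their symbols from 18 imprinted domains. Under these symbols the count table held 50 of them among its 25146 entries, and Nespas was not analysed here. Poly(A)-minus RNA-seq, which captures RNA without a poly(A) tail and therefore much nascent RNA, was performed on 23 libraries of the male 129/Ola mouse embryonic stem cell (mESC) line E14-TG2a. The study deleted single CTCF binding sites beside the 2 promoters of Runx1, an essential hematopoietic transcription factor, and asked what this did to chromatin folding and transcription during blood formation. Wild-type (WT) cells were sampled undifferentiated on day 0 (2 libraries), as mesoderm sorted for Flk1 on day 4 (3 libraries) and as hematopoietic progenitor cells (HPCs) sorted for CD41 on day 7 (4 libraries). P1-CTCF-KO clones, made with CRISPR-Cas9 and lacking the site at the distal promoter P1, gave 3 mesoderm and 3 HPC libraries, and P2-CTCF-KO clones, lacking the site at the proximal promoter P2, gave 3 and 5. In mesoderm and HPCs each genotype was represented by 3 clones. They were C6.1, C8.1 and B9.3 for WT, and E7.1, E7.2 and E9.1 for P1-CTCF-KO. For P2-CTCF-KO they were D2.1, D10.1 and another clone named E9.1. The undifferentiated libraries are labelled E14, as the line, and carry none of these clone names. B9.3, D2.1 and D10.1 were each sequenced as 2 HPC libraries. All differentiated cells had received BMP4, bFGF and Activin A, and HPCs also SCF and VEGF after the mesoderm sort. Mesoderm was sorted for the surface marker Flk1. The paper describes the HPC sort as positive for CD41 and negative for the surface markers CD45 and Ter119. Each group was thus a mixture of the cells that pass its sort. A change of an RNA in such bulk samples can be a change in the number of cells of a type or in the RNA per cell, and these cannot be told apart.

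Imprinted genes are transcribed mainly from the allele of a single parent. Methylation laid down in the egg or the sperm at an imprinting control region marks that parent's copy. Where the region is unmethylated, a CTCF-bound insulator or a long noncoding RNA transcribed from it keeps certain neighbouring genes silent on the same chromosome. Many of these genes act on growth, such as the growth factor Igf2 and Igf2r, the receptor that removes it, and several are strongly expressed in embryonic mesoderm and placenta and decline in later tissues. Mouse ESC clones in culture are known to differ from each other in imprinted expression. The counts do not separate the alleles, so no value below is a measure of imprinting itself.

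The 5 sequences shown here are open regions at the starts of, or within, members whose RNA is described below were taken from the mm9 reference sequence, each written 5′ to 3′ on the strand of the gene. The first 2 lie in introns of Peg3 and are shown because they carry repeats of AAGATGGC, the core of the motif of the transcription factor YY1 (here as GCCATCTT on the other strand, in capitals). They are chr7:6680475-6680774, a peak 2506 bp past the start that was listed in mesoderm as well, and chr7:6680872-6681171, whose peak 2109 bp past the start was listed in HPCs alone. Both marked matches of the second window lie outside that peak (6680958-6681085). The match nearer the start of the gene lies in a peak of the mesoderm list (6681125-6681710). The third is the start of Phlda2 (chr7:150688420-150688579), open in the mesoderm list alone, with a match to GGNGGCAG, letters of the CTCF motif core, in capitals. The last pair are the starts of the noncoding RNAs Airn (chr17:12934053-12934252, in an intron of Igf2r on the opposite strand) and Kcnq1ot1 (chr7:150482416-150482675, in an intron of Kcnq1 on the opposite strand), with the transcribed part from the annotated start in capitals.
Peg3 intron, open in both stages: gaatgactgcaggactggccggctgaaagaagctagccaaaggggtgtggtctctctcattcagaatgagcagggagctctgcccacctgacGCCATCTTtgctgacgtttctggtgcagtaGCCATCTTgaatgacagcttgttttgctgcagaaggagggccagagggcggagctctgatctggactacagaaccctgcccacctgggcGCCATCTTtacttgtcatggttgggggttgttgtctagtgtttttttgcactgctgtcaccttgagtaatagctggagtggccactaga
Peg3 intron, open in HPCs: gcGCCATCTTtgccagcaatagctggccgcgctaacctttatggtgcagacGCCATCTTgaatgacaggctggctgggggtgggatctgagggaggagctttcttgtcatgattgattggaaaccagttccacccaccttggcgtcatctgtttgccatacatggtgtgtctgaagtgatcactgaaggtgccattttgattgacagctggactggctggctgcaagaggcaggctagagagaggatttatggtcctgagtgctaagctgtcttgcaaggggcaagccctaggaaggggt
Phlda2 start, open in mesoderm: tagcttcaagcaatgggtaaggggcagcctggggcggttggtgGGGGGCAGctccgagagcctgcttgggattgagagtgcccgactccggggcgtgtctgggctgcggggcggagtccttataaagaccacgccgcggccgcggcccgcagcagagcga
Airn start, open in HPCs: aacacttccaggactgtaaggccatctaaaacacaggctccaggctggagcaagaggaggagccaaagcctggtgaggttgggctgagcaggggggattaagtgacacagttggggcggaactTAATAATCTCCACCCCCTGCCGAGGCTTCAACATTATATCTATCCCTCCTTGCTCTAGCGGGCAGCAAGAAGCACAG
Kcnq1ot1 start, open in both stages: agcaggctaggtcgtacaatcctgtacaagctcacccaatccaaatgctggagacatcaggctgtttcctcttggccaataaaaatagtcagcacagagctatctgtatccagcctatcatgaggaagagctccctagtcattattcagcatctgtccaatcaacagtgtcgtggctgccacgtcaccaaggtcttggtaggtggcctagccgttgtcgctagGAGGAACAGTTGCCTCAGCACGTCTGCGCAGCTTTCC

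A library held from 7805102 to 24406998 counts, of which 68.1% to 91.0% fell in 187 entries for ribosomal RNA or for genes with more than 1 listed locus. The rest, from 878966 to 7748566 counts, is the depth behind the members, which took 0.104% to 0.849% of it. Levels are given as CPM, counts scaled to a library of fixed size, on a single scale for all 23 libraries. On it 1 count was worth 0.0055 to 0.0098 CPM in undifferentiated mESCs and 0.041 to 0.203 CPM in mesoderm and HPCs. A call required a log2 fold change beyond 1 in either direction and an adjusted p below 0.05, and all adjusted p-values are from edgeR's quasi-likelihood test over all genes tested. The labelled stages carried their markers: pluripotency markers summed to 35.4 and 38.4 CPM in undifferentiated mESCs and at most 3.92 CPM later, and HPC markers to 71.9 to 257 CPM in HPCs and 2.55 to 19.6 CPM in mesoderm. RNA of the undifferentiated cells alone is described as depleted of ribosomal RNA, and these cells are labelled E14 and not by a clone. Stage, preparation and clone therefore cannot be told apart in comparisons with them. The 2 undifferentiated libraries are technical replicates of a single culture. The first HPC libraries of WT clone B9.3 and P2-CTCF-KO clone D2.1 stood apart from the second library of the same clone. Mesoderm markers summed to 11.7 CPM in the first and 4.99 CPM in the second B9.3 library, and to 19.5 and 4.01 CPM in the D2.1 libraries. Of these sums Kdr alone gave 11.2 and 4.99 CPM in B9.3 and 18.1 and 3.91 CPM in D2.1. In the same order, 3, 4, 1 and 3 of the 5 markers had no count. Globin RNAs of primitive erythroid cells summed to 53.4 and 137 CPM, and to 25.2 and 151 CPM.

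Reads over exons and introns were counted per gene, and 30 of the 50 members overlap another entry. Overlaps on opposite strands left little mark, as the neuronal gene Nnat had 3 counts in all libraries inside the oppositely transcribed Blcap with 1295, and the potassium channel gene Kcnq1 had 121 counts against 7791 of Kcnq1ot1. Overlaps on the same strand were counted for both entries: Snurf with 1873 counts and Snrpn with 1880 are nearly the same reads and lie inside the host RNA Snhg14 with 6092, Peg13 lies inside Trappc9, Mcts2 inside H13, and microRNA and snoRNA entries inside Meg3, Rian and Mirg. The reads of these pairs cannot be assigned to a single transcript. The filter on low counts left 43 members in the fit of the WT libraries, 35 in the mesoderm fit, 27 in the HPC fit and 32 in the fit of all mesoderm and HPC libraries. H19, Ascl2, Dio3, Peg13, Nnat, Plagl1 and Nap1l5 passed in none. H19, the noncoding RNA beside Igf2, had 43 counts in all, the trophoblast factor Ascl2 13, the thyroid hormone deiodinase Dio3 14, the noncoding RNA Peg13 31, the zinc finger gene Plagl1 10 and Nap1l5 none. A low count in RNA without a poly(A) tail does not give the level of the mature mRNA.

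**Figure D1:**
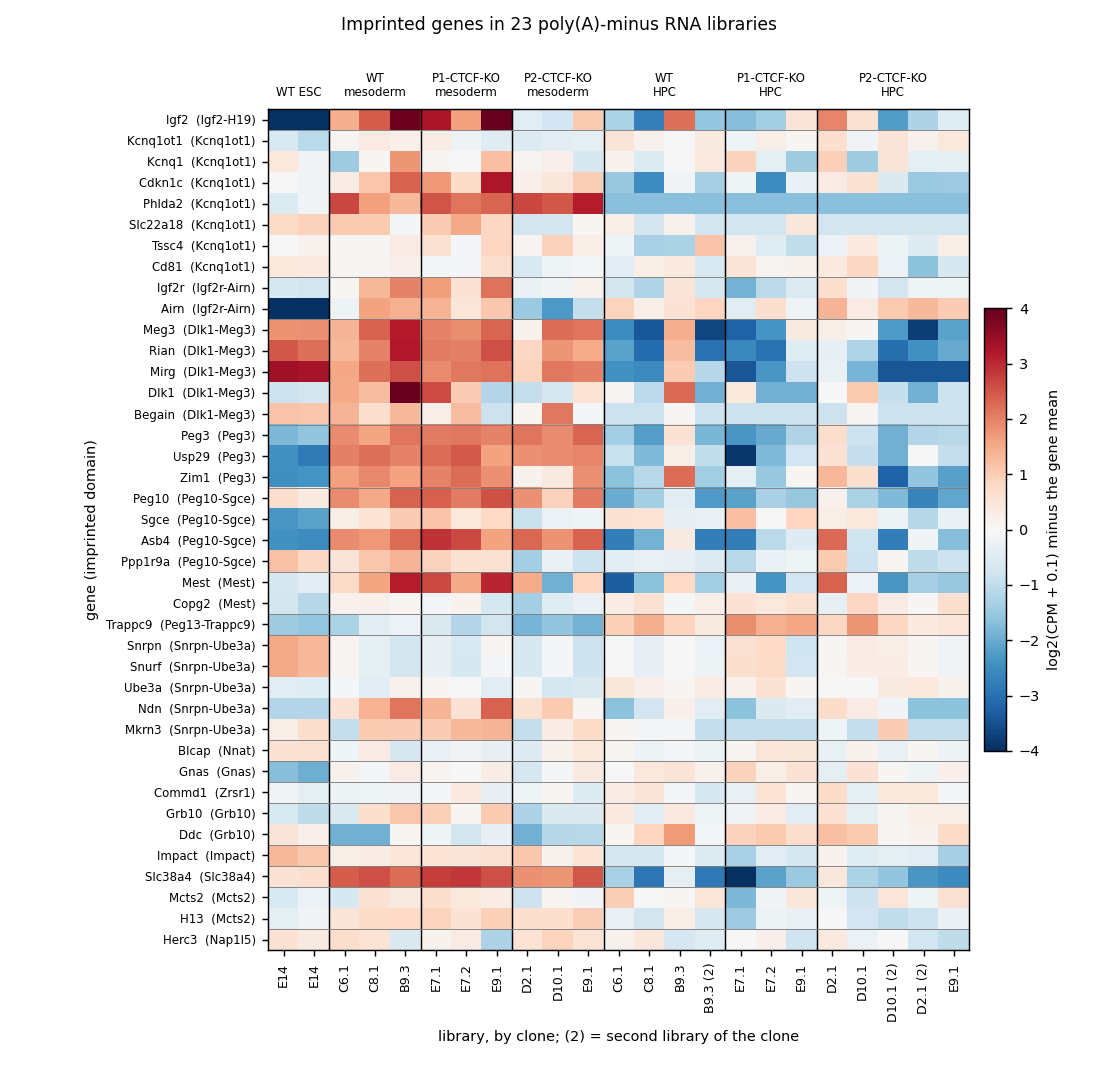
Rows are the 40 members that passed the filter in a fit of all 23 libraries, grouped by imprinted domain, and columns are the libraries by group and clone. Colour is log2(CPM + 0.1) minus the mean of the gene over the libraries, capped at 4 in either direction. Many members are highest in the 9 mesoderm libraries, and the first HPC library of B9.3 is redder than the second for Igf2, Meg3, Rian and Zim1.

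Positions are given on mm9. Igf2 (chr7:149836672-149852721), the paternally expressed fetal growth factor, had the widest range in CPM of all members. It stood at 0.704 and 0.432 CPM in undifferentiated mESCs and at 44.2, 86.1 and 247 CPM in WT mesoderm of C6.1, C8.1 and B9.3. P1-CTCF-KO mesoderm had 157, 50.1 and 260 CPM (E7.1, E7.2, E9.1), whereas P2-CTCF-KO mesoderm had 12, 9.5 and 33.2 CPM (D2.1, D10.1, E9.1), below all 6 other mesoderm libraries. WT HPCs had 6.71 (C6.1), 2.33 (C8.1), 74.1 and 5.51 CPM (B9.3). P1-CTCF-KO HPCs had 4.87, 6.27 and 23.1 CPM. P2-CTCF-KO HPCs had 62.5 and 6.87 CPM (D2.1), 24.9 and 3.37 CPM (D10.1) and 11.5 CPM (E9.1). The levels of HPC groups overlapped each other, and 1 WT, 1 P1-CTCF-KO and 3 P2-CTCF-KO libraries exceeded the lowest mesoderm library. From mESCs to WT mesoderm the log2 fold change was 7.77 (SE 1.65, adjusted p = 0.00556), a call that was lost without either undifferentiated library (adjusted p from 6.43e-05 to 0.0747 with 1 library left out). From mesoderm to HPCs, Igf2 was called lower in P1-CTCF-KO (log2 fold change -3.78, SE 1.24, adjusted p = 0.0212), a call lost without the mesoderm library of E9.1 or the HPC library of E7.1 or E7.2 (adjusted p from 0.00644 to 0.0866 with 1 library left out). The WT value of -2.50 (SE 0.97, adjusted p = 0.0765) was not called. Without the first B9.3 library the WT value was -4.70 (SE 0.62, adjusted p = 0.00014). That library was picked out after its high values were seen, and so was the first HPC library of D2.1. Adjusted p-values without them, here and for Rian, Meg3, Zim1 and Asb4 below, are a description and no test. In P2-CTCF-KO the value was 0.25 (SE 1, adjusted p = 0.866).

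In the Igf2r-Airn domain, the receptor gene Igf2r (chr17:12875271-12962572, minus strand) lies over the start of Airn (chr17:12934176-13052750, plus strand), the paternally expressed antisense RNA that silences Igf2r on its own chromosome. Airn had 0.830 and 0.589 CPM in undifferentiated mESCs, and 14.3, 50.5 and 44.6 CPM in WT, 42.5, 22.9 and 34.7 CPM in P1-CTCF-KO and 5.82, 3.31 and 8.51 CPM in P2-CTCF-KO mesoderm. All 12 HPC libraries lay between 12.4 and 42.4 CPM. The P2-CTCF-KO mesoderm libraries were thus the lowest of the differentiated libraries, with no overlap. Igf2r had 11.2 and 10.4 CPM in mESCs, 18.3, 43.9 and 69.3 CPM in WT mesoderm, 55.9, 26.0 and 79.3 CPM in P1-CTCF-KO mesoderm and 14.6, 16.3 and 19.7 CPM in P2-CTCF-KO mesoderm. The lowest WT library overlapped the P2-CTCF-KO libraries for Igf2r. In HPCs Igf2r ranged from 4.66 to 27.8 CPM. From mESCs to WT mesoderm Airn rose by 5.67 (SE 0.56, adjusted p = 0.000112) on the log2 scale, and Igf2r by 2.02 (SE 0.57, adjusted p = 0.022), which was not called without either undifferentiated library (adjusted p from 0.0047 to 0.153 with 1 library left out). From mesoderm to HPCs Igf2r fell in WT (log2 fold change -1.71, SE 0.45, adjusted p = 0.0143) and in P1-CTCF-KO (-2.69, SE 0.53, adjusted p = 0.000738), whereas its value in P2-CTCF-KO was 0.00 (SE 0.44, adjusted p = 0.995). The WT call was lost without the mesoderm library of B9.3 (adjusted p from 0.00123 to 0.0524 with 1 library left out). Airn rose in P2-CTCF-KO (2.53, SE 0.42, adjusted p = 0.000148), and its values of -0.48 (SE 0.35, adjusted p = 0.352) in WT and -0.91 (SE 0.42, adjusted p = 0.0917) in P1-CTCF-KO were not called.

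The ratio of Airn to Igf2r counts within a library needs no scaling between libraries. It was 0.0564 and 0.0743 in mESCs, 0.644 to 1.15 in WT, 0.438 to 0.881 in P1-CTCF-KO and 0.203 to 0.432 in P2-CTCF-KO mesoderm. In HPCs it was 0.990 to 2.96 in WT, 1.22 to 3.12 in P1-CTCF-KO and 1.29 to 3.22 in P2-CTCF-KO. P2-CTCF-KO mesoderm therefore had the lowest ratios of the differentiated groups, and all 12 HPC libraries exceeded all but the WT mesoderm library at 1.15. Both genes are counted over their full length, so the ratio also depends on how far each is transcribed.

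**Figure D2:**
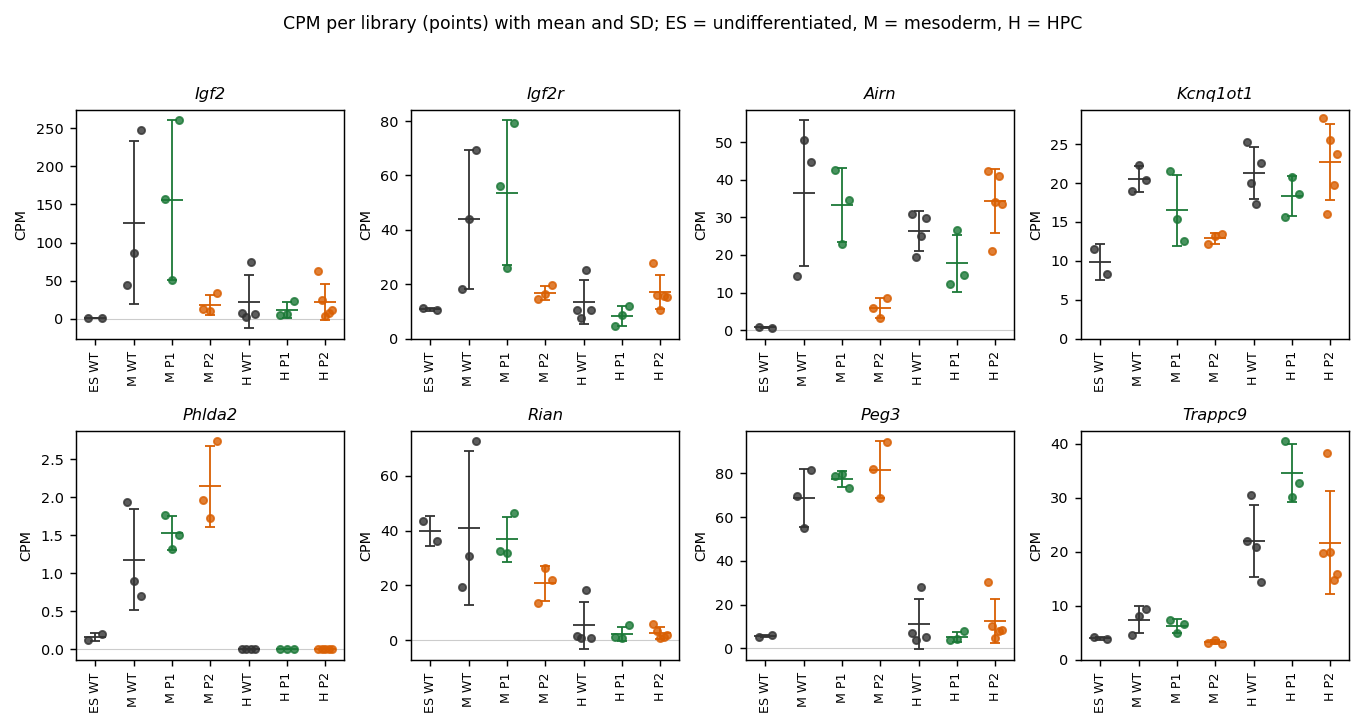
CPM of 8 members in each library (points), with the mean (horizontal bar) and SD (whiskers) of each group, in undifferentiated mESCs (ES), mesoderm (M) and HPCs (H) of WT (black), P1-CTCF-KO (green) and P2-CTCF-KO (orange). P2-CTCF-KO mesoderm is the lowest mesoderm group for Airn (3.31 to 8.51 CPM), Phlda2 is at 0 in all 12 HPC libraries, and Trappc9 is higher in every HPC library than in every mesoderm library.

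The Kcnq1ot1 domain holds a paternally expressed noncoding RNA, Kcnq1ot1 (chr7:150399015-150482452, inside Kcnq1 on the opposite strand), which is known to silence neighbours such as the cell cycle inhibitor Cdkn1c and the placental growth inhibitor Phlda2. Kcnq1ot1 itself varied little. It had 11.5 and 8.26 CPM in mESCs, 12.1 to 22.3 CPM in mesoderm and 15.6 to 28.4 CPM in HPCs, with 12.1, 13.2 and 13.4 CPM in P2-CTCF-KO mesoderm below the 18.9, 22.3 and 20.4 CPM of WT. Its step from mESCs to WT mesoderm was called at a log2 fold change of 1.05 (SE 0.24, adjusted p = 0.0089), near the limit of 1, and was lost without the second undifferentiated library (adjusted p from 0.00653 to 0.149 with 1 library left out) and, at 0.93, without the filter on low counts. Its later step was 0.05 (SE 0.20, adjusted p = 0.902) in WT and 0.15 (SE 0.23, adjusted p = 0.644) in P1-CTCF-KO, and 0.80 (SE 0.21, adjusted p = 0.00575) in P2-CTCF-KO, under the limit on the fold change. Its counts were 24 to 240.0 times those of the overlapping Kcnq1 in the libraries with any Kcnq1 count.

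Phlda2 (chr7:150687452-150688429) had 0.120 and 0.196 CPM in mESCs, 1.94, 0.900 and 0.696 CPM in WT, 1.76, 1.32 and 1.51 CPM in P1-CTCF-KO and 1.97, 1.72 and 2.74 CPM in P2-CTCF-KO mesoderm, and no count in any of the 12 HPC libraries. Mesoderm and HPC libraries thus did not overlap in any genotype. Against a floor of 3 counts per HPC library it was at least 3.97-fold lower in HPCs in WT, at least 3.46-fold in P1-CTCF-KO and at least 7.49-fold in P2-CTCF-KO (adjusted p = 0.0019, 0.000457 and 3.47e-05). Cdkn1c had 0.607, 1.14 and 2.84 CPM in WT mesoderm and at most 0.429 CPM in WT HPCs, and fell by 3.24 on the log2 scale (SE 0.73, adjusted p = 0.00674). It also fell in P1-CTCF-KO (-3.43, SE 0.96, adjusted p = 0.00849), a call lost without the mesoderm library of E9.1 or the HPC library of E7.2 (adjusted p from 0.00447 to 0.0622 with 1 library left out). In P2-CTCF-KO its value was -0.95 (SE 0.77, adjusted p = 0.341). The rises of Phlda2 (2.80, SE 0.56, adjusted p = 0.00707) and Cdkn1c (1.83, SE 0.61, adjusted p = 0.0434) from mESCs to WT mesoderm were both lost without either undifferentiated library (highest adjusted p 0.115 and 0.268 with 1 library left out). Cdkn1c was also lost without the mesoderm library of B9.3 or the HPC library of C6.1. Kcnq1, the transporter gene Slc22a18, Tssc4 and the tetraspanin gene Cd81 were called in no step in which they were tested.

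In the Dlk1-Meg3 domain the maternally expressed noncoding RNAs Meg3 (chr12:110779205-110809939), Rian (chr12:110842154-110899921) and Mirg (chr12:110973190-110987667), hosts of snoRNAs and microRNAs, all fell from mesoderm to HPCs in every genotype. The ratio of Meg3 to Rian counts was 0.222 and 0.274 in mESCs and 0.346 to 0.471 in WT mesoderm, and that of Mirg to Rian was 0.259 and 0.287 in mESCs and 0.0864 to 0.158 in WT mesoderm. Rian had 43.6 and 36.1 CPM in mESCs, 19.4, 30.9 and 72.5 CPM in WT, 32.6, 31.7 and 46.3 CPM in P1-CTCF-KO and 13.7, 26.5 and 22.0 CPM in P2-CTCF-KO mesoderm. In HPCs it had 1.68, 0.833, 18.4 and 0.896 CPM in WT, 1.22, 0.895 and 5.45 CPM in P1-CTCF-KO, and in P2-CTCF-KO 6.14 and 1.37 CPM (D2.1), 3.30 and 0.865 CPM (D10.1) and 1.85 CPM (E9.1). Of the HPC libraries only the first of B9.3, at 18.4 CPM, reached the range of mesoderm. Meg3 had 9.70 and 9.88 CPM in mESCs, 3 to 25.1 CPM in mesoderm and 0.106 to 7.65 CPM in HPCs. Mirg had 11.3 and 10.4 CPM in mESCs, 1.88 to 6.27 CPM in mesoderm and 0 to 2.06 CPM in HPCs. From mesoderm to HPCs Rian fell by 2.89 (SE 0.88, adjusted p = 0.0297), Meg3 by 2.86 (SE 0.90, adjusted p = 0.0336) and Mirg by 2.81 (SE 0.65, adjusted p = 0.00748) on the log2 scale in WT. All 3 were also called lower in P1-CTCF-KO (-3.86, -3.01 and -4.23) and in P2-CTCF-KO (-2.93, -2.70 and -3.92).

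Several of these calls rest on few libraries. With 1 library left out, the adjusted p of Rian in WT ran from 2.13e-05 to 0.0812, and the call was lost without the mesoderm library of C8.1 or B9.3 or the HPC library of C6.1, C8.1 or the second of B9.3. Meg3 in WT ran from 1.39e-05 to 0.0832 and was lost without the same libraries or either undifferentiated library. Without the first B9.3 library the WT values were -5.16 (SE 0.52, adjusted p = 2.13e-05) for Rian and -6.04 (SE 0.57, adjusted p = 1.39e-05) for Meg3. In P1-CTCF-KO Meg3 (adjusted p = 0.0451) was lost in 10 of the 21 fits with 1 library left out (adjusted p from 0.0106 to 0.16), those without any of its mesoderm libraries or the HPC libraries of E7.1 and E7.2 included. The others were the fits without the mesoderm libraries of C6.1, C8.1, D10.1 and P2-CTCF-KO E9.1 and the second HPC library of D10.1. In P2-CTCF-KO Meg3 (adjusted p = 0.0277) was lost without the mesoderm libraries of D10.1 or E9.1, the second HPC libraries of D2.1 or D10.1 or that of E9.1 (adjusted p from 0.00541 to 0.0937), and with the clone as a block (-2.69, adjusted p = 0.0873). Mirg lost no call with 1 library left out. Dlk1, a membrane ligand related to Notch ligands, had 0.109 and 0.128 CPM in mESCs and ranged from 0.0656 (P1-CTCF-KO E9.1) to 6.09 CPM (WT B9.3) in mesoderm. It rose from mESCs to WT mesoderm (4.5, SE 1.08, adjusted p = 0.0103), except without either undifferentiated library (adjusted p from 0.00175 to 0.121), and was called in no later step. Begain, at the paternally expressed end of the domain, had 0.364, 0.180 and 0.348 CPM in WT mesoderm and a single count in the 4 WT HPC libraries, a ratio of 11.8 with a 95% counting interval from 1.75 to 507. Its call (adjusted p = 0.0207) was lost without the mesoderm library of B9.3 or the HPC library of C6.1 or C8.1 (adjusted p from 0.0171 to 0.0644).

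In the Peg3 domain all 3 members rose to WT mesoderm, and Peg3 and Usp29 fell to HPCs in every genotype. Peg3 (chr7:6658670-6683130), a paternally expressed zinc finger gene, had 5.27 and 6.17 CPM in mESCs, 69.6, 55.1 and 81.4 CPM in WT, 78.8, 79.8 and 73.2 CPM in P1-CTCF-KO and 82.1, 68.6 and 94.5 CPM in P2-CTCF-KO mesoderm. In HPCs it had 7.00, 4.00, 28.0 and 5.12 CPM in WT, 3.65, 4.48 and 7.98 CPM in P1-CTCF-KO, and in P2-CTCF-KO 30.2 and 8.13 CPM (D2.1), 10.47 and 4.81 CPM (D10.1) and 8.58 CPM (E9.1). All mesoderm libraries exceeded all HPC libraries, also with the 2 first HPC libraries that were highest. Peg3 rose by 3.58 on the log2 scale from mESCs to WT mesoderm (SE 0.74, adjusted p = 0.00491), except without either undifferentiated library (adjusted p from 2.21e-05 to 0.0692 with 1 library left out). It fell to HPCs by 2.63 in WT (SE 0.55, adjusted p = 0.00418), by 3.85 in P1-CTCF-KO (SE 0.69, adjusted p = 0.000325) and by 2.72 in P2-CTCF-KO (SE 0.54, adjusted p = 0.000676). Usp29, a ubiquitin protease gene that starts beside Peg3 in the opposite direction, had 0.175 and 0.108 CPM in mESCs, 4.39 to 7.95 CPM in mesoderm and 0 to 2.09 CPM in HPCs, again without overlap. It rose by 5.35 (SE 0.50, adjusted p = 9.46e-05) and fell by 2.86 in WT (SE 0.39, adjusted p = 0.000311), 3.97 in P1-CTCF-KO and 2.36 in P2-CTCF-KO. Peg3 had 30.2 and 57.2 times the counts of Usp29 in mESCs, 8.27 to 17.0 times in mesoderm and 5.92 to 17.2 times in the HPC libraries with any Usp29 count.

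Zim1, a maternally expressed zinc finger gene of the same domain, had 0.0710 and 0.0785 CPM in mESCs, 2.73 to 4.32 CPM in WT and P1-CTCF-KO mesoderm, and 0.938, 1.10 and 3.18 CPM in P2-CTCF-KO mesoderm. It rose from mESCs to WT mesoderm (5.27, SE 1.03, adjusted p = 0.00375), except without either undifferentiated library (adjusted p from 4.52e-06 to 0.0675). In WT HPCs it had 0.197, 0.333, 4.29 and 0.256 CPM, so that the first B9.3 library was above every WT mesoderm library. The fall of 1.16 in WT (SE 0.75, adjusted p = 0.281) was not called, and without that library it was 3.46 (SE 0.39, adjusted p = 4.51e-05).

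Peg10 (chr6:4697305-4710516), a paternally expressed gene derived from a retrotransposon and needed for the placenta, had 46.8 and 37.4 CPM in mESCs, 107, 83.6 and 149 CPM in WT, 154, 121 and 168 CPM in P1-CTCF-KO and 103, 54.7 and 124 CPM in P2-CTCF-KO mesoderm. All HPC libraries were lower, at 4.44 to 32.7 CPM. The log2 fold change of Peg10 was -3.30 in WT (SE 0.40, adjusted p = 0.000135), -3.98 in P1-CTCF-KO (SE 0.63, adjusted p = 0.000112) and -2.86 in P2-CTCF-KO (SE 0.50, adjusted p = 0.000225). Its rise from mESCs (1.42, SE 0.47, adjusted p = 0.0437) was lost without either undifferentiated library, the mesoderm library of C6.1 or B9.3 or the HPC library of C8.1 (adjusted p from 0.00719 to 0.254). Sgce, the epsilon-sarcoglycan gene that starts beside Peg10 in the opposite direction, rose by 3.12 (SE 0.38, adjusted p = 0.000277) and was called in no later step, with 1.41, 2.27 and 2.37 CPM in P2-CTCF-KO mesoderm below the 3.28 to 6.11 CPM of all other mesoderm libraries. Asb4, a maternally expressed gene with a SOCS box, rose by 6.56 (SE 0.84, adjusted p = 0.000345), from 0.0273 and 0.0196 CPM to 2.43, 2.16 and 3.13 CPM, and fell in WT by 3.44 (SE 0.69, adjusted p = 0.00327) and in P1-CTCF-KO by 3.99 (SE 1.16, adjusted p = 0.0109). Its P2-CTCF-KO value of -1.71 (SE 0.76, adjusted p = 0.0838) was not called with all libraries, and was -3.71 (SE 0.54, adjusted p = 2.77e-05) without the first B9.3 and D2.1 libraries. Ppp1r9a, which encodes the actin-binding neurabin, had 7.77, 11.8 and 14 CPM in WT mesoderm, 10.3, 8.32 and 8.33 CPM in P1-CTCF-KO mesoderm and 2.06, 4.54 and 3.04 CPM in P2-CTCF-KO mesoderm. It fell to HPCs in WT (-1.45, SE 0.23, adjusted p = 0.000741) and in P1-CTCF-KO (-1.18, SE 0.45, adjusted p = 0.0426), where 12 of the 21 fits with 1 library left out lost the call (adjusted p from 0.00584 to 0.172), those without any P1-CTCF-KO library included. The other 6 were the fits without the mesoderm libraries of C6.1, C8.1 and P2-CTCF-KO E9.1, the HPC libraries of C6.1 and C8.1 and the second of D10.1. Its P2-CTCF-KO value was 0.67 (SE 0.41, adjusted p = 0.204).

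Mest (chr6:30683505-30698466), a paternally expressed gene of the mesoderm with a hydrolase fold, had 3.67 and 4.17 CPM in mESCs and 9.72, 17.5 and 50.8 CPM in WT, 36.1, 16.7 and 48.2 CPM in P1-CTCF-KO and 16.1, 1.45 and 10.4 CPM in P2-CTCF-KO mesoderm. In HPCs it ranged from 0.4932 to 29.9 CPM, the highest in the first D2.1 library. Mest rose to WT mesoderm (2.73, SE 0.92, adjusted p = 0.0451) and fell to WT HPCs (-2.84, SE 0.74, adjusted p = 0.0143) and P1-CTCF-KO HPCs (-3.55, SE 1.22, adjusted p = 0.0269), with -0.18 (SE 0.96, adjusted p = 0.902) in P2-CTCF-KO. The rise was lost without either undifferentiated library, the mesoderm library of C8.1 or B9.3 or the second HPC library of B9.3 (adjusted p from 0.00547 to 0.229). The WT fall was lost without the mesoderm library of B9.3 (adjusted p from 0.000329 to 0.0523), and the P1-CTCF-KO fall without the mesoderm library of E7.1 or E9.1 or any HPC library of that genotype (adjusted p from 0.00541 to 0.106). Copg2, a coatomer subunit gene on the other strand, rose from 2.54 and 1.86 CPM to 4.86, 4.98 and 4.47 CPM (1.10, SE 0.26, adjusted p = 0.00995). That call was lost without the second undifferentiated library (adjusted p from 0.00663 to 0.15) and, at 0.98, without the filter on low counts.

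Trappc9 (chr15:72420049-72891634), a subunit gene of a vesicle trafficking complex, was the only member called higher in HPCs in all 3 genotypes. It had 4.15 and 3.74 CPM in mESCs, 4.62, 8.1 and 9.46 CPM in WT, 7.4, 4.90 and 6.62 CPM in P1-CTCF-KO and 3, 3.65 and 2.96 CPM in P2-CTCF-KO mesoderm. HPC libraries had 22.0, 30.6, 21 and 14.5 CPM in WT, 40.6, 30.2 and 32.8 CPM in P1-CTCF-KO, and in P2-CTCF-KO 19.8 and 14.7 CPM (D2.1), 38.3 and 19.9 CPM (D10.1) and 15.9 CPM (E9.1). Every HPC library exceeded every mesoderm library. The rise was 1.56 in WT (SE 0.29, adjusted p = 0.00232), 2.44 in P1-CTCF-KO (SE 0.34, adjusted p = 3.66e-05) and 2.73 in P2-CTCF-KO (SE 0.34, adjusted p = 1.02e-05). Peg13 inside it accounted for 31 of its 4796 counts. Kcnk9, a potassium channel gene of the domain, had 1 count in the mESC libraries and 0, 0.360 and 1.04 CPM in WT mesoderm, a ratio of 162 with a 95% counting interval from 26.5 to 6680. The call (adjusted p = 0.0021) was lost without the first undifferentiated library (adjusted p from 0.00103 to 0.0652).

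In the Snrpn-Ube3a domain, Snrpn, the gene of a splicing protein, and its overlapping unit Snurf were the only members called lower in mesoderm than in mESCs. Snrpn had 5.38 and 4.72 CPM in mESCs, 0.962 to 1.94 CPM in mesoderm and 1.01 to 3.24 CPM in HPCs, and its log2 fold change to WT mesoderm was -1.85 (SE 0.28, adjusted p = 0.000921). The value of Snurf, -1.85, is not a separate observation, as its count was 0.897 to 1 times that of Snrpn in every library. Ube3a, the ubiquitin ligase gene of the domain, was steady at 8.4 to 20.7 CPM over all libraries and was called in no step. Ndn, a paternally expressed MAGE family gene, rose from 0.0382 and 0.0392 CPM to 0.364, 0.720 and 1.28 CPM in WT mesoderm (4.33, SE 0.62, adjusted p = 0.000657) and fell to at most 0.258 CPM in WT HPCs (-2.78, SE 0.68, adjusted p = 0.0102). Magel2, a MAGE gene beside it, had 1 count in the WT HPC libraries, and WT mesoderm exceeded them 9.87 times with a 95% counting interval from 1.40 to 429. That call (adjusted p = 0.0445) was lost in fits without the second undifferentiated library or the HPC library of C6.1, C8.1 or the second of B9.3 (adjusted p from 0.0349 to 0.113) and with DESeq2.

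Of the remaining domains, Slc38a4 (chr15:96825253-96886387), a paternally expressed amino acid transporter gene, changed most. It had 9.35 and 9.81 CPM in mESCs, 34.1, 38.1 and 29.5 CPM in WT, 43.2, 45.4 and 37.5 CPM in P1-CTCF-KO and 22.3, 21.5 and 35.5 CPM in P2-CTCF-KO mesoderm, and 0.203 to 8.58 CPM in HPCs, without overlap. It fell by 3.90 in WT (SE 0.48, adjusted p = 0.000163), 5 in P1-CTCF-KO (SE 0.80, adjusted p = 0.000114) and 3.08 in P2-CTCF-KO (SE 0.58, adjusted p = 0.000443). Its rise from mESCs (1.82, SE 0.54, adjusted p = 0.0288) was lost without either undifferentiated library or the mesoderm library of C8.1 (adjusted p from 0.00265 to 0.177). Gnas, the gene of the stimulatory G protein alpha subunit, rose from 4.17 and 3.52 CPM to 15.2, 13.3 and 17.3 CPM in WT mesoderm (1.98, SE 0.25, adjusted p = 0.00029) and stayed between 8.63 and 26.4 CPM in all differentiated libraries. The entry Gnasas1 overlaps Gnas on the opposite strand and had 2842 counts in all libraries. Grb10, a growth factor receptor adaptor gene, had 18.4 and 13.9 CPM in mESCs, 18.8, 43.9 and 61.2 CPM in WT, 53.7, 28.6 and 58.0 CPM in P1-CTCF-KO and 11.8, 18.6 and 18.9 CPM in P2-CTCF-KO mesoderm, and 20.8 to 41.8 CPM in HPCs. Its rise (1.36, SE 0.43, adjusted p = 0.0371) was lost without either undifferentiated library or the mesoderm library of C8.1 or B9.3 (adjusted p from 0.00523 to 0.248). H13, the signal peptide peptidase gene, had 7.41 to 10.3 CPM in mesoderm and 1.82 to 6.18 CPM in HPCs, and Impact, a regulator of translation, 3.51 to 6.75 and 1.19 to 3.49 CPM. Neither overlapped between the stages. Both were called lower in P1-CTCF-KO (-1.38, adjusted p = 0.00206, and -1.34, adjusted p = 0.00307) and in P2-CTCF-KO (-1.32, adjusted p = 0.000728, and -1.08, adjusted p = 0.00361), and passed the test under the limit on the fold change in WT (-0.99 and -0.81). The P2-CTCF-KO call of Impact was lost to the limit on the fold change without the mesoderm library of D2.1 (-0.82) or the HPC library of E9.1 (-0.92). Blcap, Commd1, Zrsr1, Ddc, Mcts2 and Herc3 were called in no step.

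Counted over domains, the step from mESCs to WT mesoderm was upward. Of 43 members tested, 20 were called higher (10.7% of all 12899 genes were) and 2 lower (13.7% of all genes), with a median log2 fold change of 0.92 against -0.18 over all genes. Together 22 members were called, against 24.4% of all genes, and DESeq2 called 23 among 2723 genes. The 20 came from 12 domains: Igf2, 3 of the Kcnq1ot1 domain, Igf2r and Airn, Dlk1, all 3 of Peg3, Usp29 and Zim1, 3 of the Peg10-Sgce domain, Mest and Copg2, Kcnk9, Ndn, Gnas, Grb10 and Slc38a4. Without the first or second undifferentiated library the count was 10 or 9, fits in which the remaining library is assumed to vary like the other groups. The comparison also sets a depleted against an undepleted preparation, and cells labelled E14 against the WT clones C6.1, C8.1 and B9.3.

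The step from mesoderm to HPCs was downward. In WT, 16 of 43 members were called lower (12.5% of all genes) and 1 higher (10.8%), with a median of -1.16 against -0.01 over all genes. Together 17 were called, against 23.3% of genes, and DESeq2 called 18 among 3032 genes. Of the 16, 4 belonged to the Dlk1-Meg3 domain (Meg3, Rian, Mirg and Begain), 3 to Peg10-Sgce and 2 each to the Kcnq1ot1, Peg3 and Snrpn-Ube3a domains, the others being Igf2r, Mest and Slc38a4. In P1-CTCF-KO, 16 of 32 were called lower (16.1% of 9170 genes) and 1 higher (16.6%), and in P2-CTCF-KO 10 lower (11.7%) and 2 higher (16.5%), that is 17 and 12 in all against 32.6% and 28.2% of genes. DESeq2 called 19 and 14, among 3245 and 3015 genes. The 8 called lower in all 3 genotypes, a count given without its share over all genes, were Phlda2, Meg3, Rian, Mirg, Peg3, Usp29, Peg10 and Slc38a4. Phlda2, Mirg, Cdkn1c, Asb4 and Dlk1 passed the filter in the fit of both stages but not in the HPC fit. They were tested by way of the mesoderm libraries, so a fall was the likelier call for them. Begain, Ndn and Magel2, called lower in WT, were likewise absent from the HPC fit. Comparing single libraries, all 9 of mesoderm were above all 12 of HPCs for 7 of 32 members (Phlda2, Peg3, Usp29, Peg10, Impact, Slc38a4 and H13, against 6.21% of genes) and below them for Trappc9 (9.85%). In WT alone, HPCs were below mesoderm without overlap for 15 of 43 members (16.5% of genes) and above for 1 (16.4%). The WT count of calls was 11 without the mesoderm library of B9.3, where Igf2r, Meg3, Rian, Begain and Mest missed the threshold and Magel2 was not tested. No share over all genes is given for that fit. In a choice made after seeing the data, the first HPC libraries of B9.3 and D2.1 were left out. The WT count was then 21 (24.5% of genes), with Igf2, Dlk1, Zim1 and H13 added, and the P2-CTCF-KO count 17 (33.3% of genes), with Zim1, Asb4, Mest, Copg2 and Herc3 added. The P1-CTCF-KO count, which shares the fit, was 18 (35.3% of genes). With the clone as a block, WT gained Igf2, Impact and H13 and P1-CTCF-KO gained Zim1, P2-CTCF-KO gained Copg2 and lost Meg3, and 6 members were not tested in the smaller WT fit. In all, 10 members, Cdkn1c, Phlda2, Igf2r, Peg3, Usp29, Peg10, Asb4, Mest, Ndn and Slc38a4, were called higher in the first WT step and lower in the second, 50% of the 20 and 62.5% of the 16. Both steps share the WT mesoderm libraries, and no share of all genes with this pattern is given. The counts are therefore set side by side as a description and do not show a trait of the members.

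**Figure D3:**
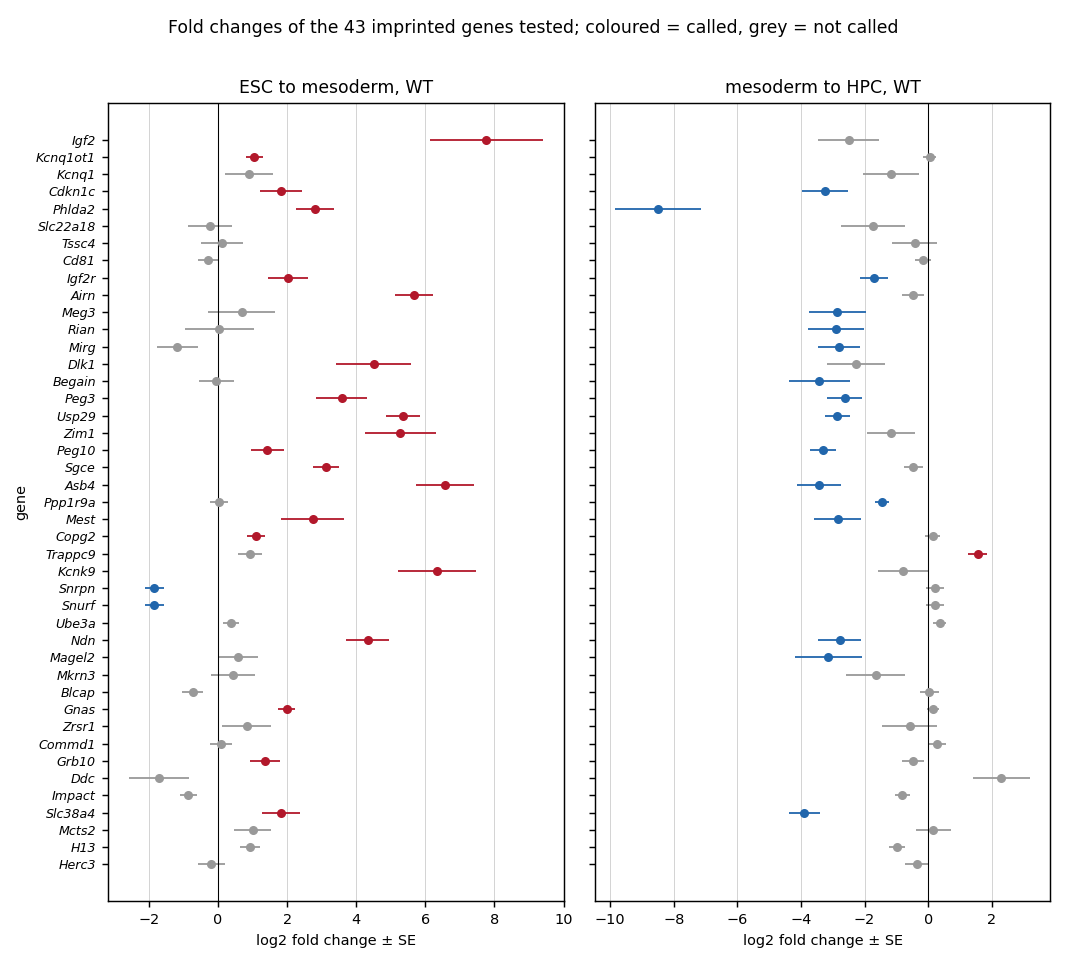
Log2 fold change with its SE of the 43 members tested in WT, from undifferentiated mESCs to mesoderm (left) and from mesoderm to HPCs (right), coloured where called (red higher, blue lower). On the left 20 points are red and 2 blue, on the right 1 is red (Trappc9) and 16 are blue, of which Phlda2 at -8.49 is against libraries with no count and is no measured size.

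No member was called between genotypes with edgeR. The paper, which used DESeq2, reported Ppp1r9a and Trappc9 as lower in P2-CTCF-KO than in WT mesoderm, among predicted Runx1 targets. Between P1-CTCF-KO and WT mesoderm, 0 of 35 members and 0% of 8778 genes were called, none of the 35 members had an unadjusted p under 0.05, and DESeq2 called 0. Between P2-CTCF-KO and WT mesoderm, 0 of 35 were called (0.0342% of genes), but 13 members had an unadjusted p under 0.05 (37.1%, against 16.0% of all genes). DESeq2 called 168 genes there, 5 of them members: Airn, Dlk1, Ppp1r9a, Trappc9 and Grb10, all lower in P2-CTCF-KO. Without the filter on low counts, edgeR called 9, a count given without its share over all genes. Of the 13, Phlda2 alone was higher (0.99, SE 0.38, adjusted p = 0.242). The log2 fold change was -2.62 for Airn (SE 0.47, adjusted p = 0.08), -1.76 for Ppp1r9a (SE 0.29, adjusted p = 0.0743), -1.19 for Trappc9 (SE 0.27, adjusted p = 0.13), -2.77 for Igf2 (SE 0.75, adjusted p = 0.149), -1.06 for Sgce (SE 0.29, adjusted p = 0.152), -1.31 for Grb10 (SE 0.40, adjusted p = 0.171) and -3.49 for Dlk1 (SE 1.14, adjusted p = 0.192). Igf2r, Rian, Kcnq1ot1 and Copg2 had values from -1.36 to -0.65, and Kcnk9, with no count in P2-CTCF-KO mesoderm, was at least 1.98-fold lower. Of the 35 members, 10 had all P2-CTCF-KO libraries below all WT libraries (11.1% of genes) and none had them above (8.23%). Of these, 5 (Igf2, Airn, Sgce, Ppp1r9a and Trappc9) were also below all P1-CTCF-KO libraries (5.46% of genes), and no member was above all 6 others (3.57%). In P1-CTCF-KO mesoderm Impact alone lay above all WT libraries (3.5% of genes) and no member below them (2.95%). Without the mesoderm library of WT clone C6.1, whose endothelial markers were the lowest of WT, Airn (adjusted p = 0.0176) and Ppp1r9a (adjusted p = 0.0272) were called. In that fit 4 members were called in all, again without the share over all genes. Over all such fits the adjusted p ran up to 0.337 for both.

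The later stage gave no calls. In HPCs 0 of 27 members were called for P1-CTCF-KO or for P2-CTCF-KO against WT (0% of 7422 genes in both), none had an unadjusted p under 0.05 in either comparison, and DESeq2 called 0 in both. The difference of the mesoderm-to-HPC step from WT was called for 0 of 32 members in P1-CTCF-KO (0% of 9170 genes, none with an unadjusted p under 0.05, 0 with DESeq2) and for 0 in P2-CTCF-KO (0.0218% of genes). In P2-CTCF-KO 7 members had an unadjusted p under 0.05 and DESeq2 called 1, Airn, against 7.01% of genes and 35 genes in all. For Airn that difference was 3.04 on the log2 scale (SE 0.55, adjusted p = 0.0822), with 0.00647 without the mesoderm library of C6.1, 0.029 without the first HPC library of D10.1 and up to 0.44 in the other fits with 1 library left out. The 2 deletions were set against each other after the data were seen. In mesoderm 0 of 35 members were called (0% of genes), 12 had an unadjusted p under 0.05 (11.2% of genes) and DESeq2 called 5 (Igf2, Igf2r, Airn, Ppp1r9a and Grb10) of the 92 genes it called. The difference of their steps was called for 0 of 32 members (0% of genes), with 8 at an unadjusted p under 0.05 (6.84% of genes) and 1 of the 3 genes that DESeq2 called, again Airn (3.44, SE 0.59, adjusted p = 0.0897). That value passed the threshold without the mesoderm library of C6.1 or E7.2 or the first HPC library of D10.1 (lowest adjusted p 0.0141) and in no other fit with 1 library left out.

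Markers of another cell type moved with these values in mesoderm. The 5 endothelial markers (Cdh5, Pecam1, Tek, Emcn and Cldn5) summed to 1.34, 7.62 and 65.5 CPM in WT mesoderm of C6.1, C8.1 and B9.3, to 13.3, 3.25 and 36.2 CPM in P1-CTCF-KO and to 0.563, 0.413 and 0.444 CPM in P2-CTCF-KO, where 2, 2 and 3 of the 5 were at 0. Emcn and Cldn5 were the ones at 0 in all P2-CTCF-KO libraries. Across the 9 mesoderm libraries the level of 11 of 35 members had a Spearman rho of at least 0.8 with this sum, against 7.55% of 8778 genes: Igf2 (0.97), Kcnk9 (0.96), Mest (0.95), Grb10 (0.92), Igf2r and Sgce (0.90), Trappc9 (0.88), Airn and Ppp1r9a (0.87), Rian (0.83) and Cdkn1c (0.80). Members high in mesoderm with a rho under 0.8 included Peg10 (0.68), Slc38a4 (0.43), Usp29 (0.20) and Peg3 (-0.05), and Phlda2 (-0.67) and Herc3 (-0.80) went the other way. These coefficients describe 9 libraries that share their scaling and hold 3 genotypes. The part of endothelial cells in the values was not tested. The sum of the mesoderm markers (Kdr, Pdgfra, Mesp1, T and Eomes) moved the other way between groups. It was 24.7 to 44.4 CPM in WT, 40.3 to 48.3 CPM in P1-CTCF-KO and 61.2 to 74.7 CPM in P2-CTCF-KO. Kdr alone did not, at 16.9 to 37.8, 25.6 to 39.1 and 24.2 to 29.8 CPM in the same order. Pdgfra, Mesp1, T and Eomes were each higher in every P2-CTCF-KO library than in every other mesoderm library. No member had a rho of 0.8 or more with the sum, the lowest being Copg2 (-0.85), Usp29 (-0.83) and Kcnq1ot1 (-0.82). Primitive erythroid markers summed to at most 0.464 CPM in mesoderm and to 0 in 5 of the 9 libraries, and 12 members had a rho of 0.8 or more with them (7.75% of genes).

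**Figure D4:**
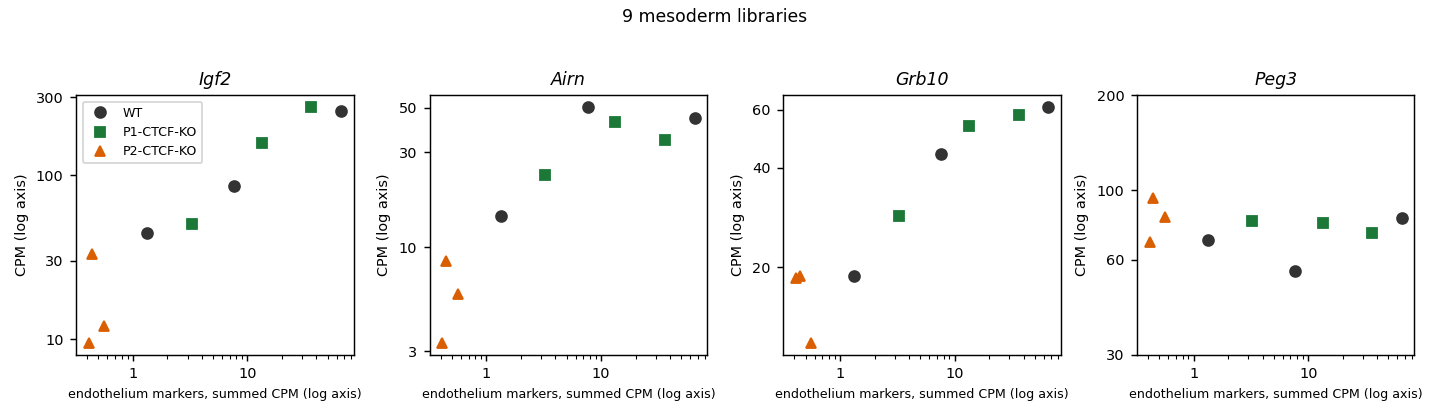
CPM of Igf2, Airn, Grb10 and Peg3 against the summed CPM of 5 endothelial markers in the 9 mesoderm libraries, both on log axes, for WT (black circles), P1-CTCF-KO (green squares) and P2-CTCF-KO (orange triangles). Igf2 and Airn are lowest in the P2-CTCF-KO libraries, whose marker sums are 0.413 to 0.563 CPM, Grb10 is low in these and in the WT library with the lowest sum, and Peg3 stays between 55.1 and 94.5 CPM throughout.

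Spread between libraries was wider for the median member than for the median gene. In the fit of the 21 mesoderm and HPC libraries the 32 members had a median biological coefficient of variation of 35.5%, against 26.0% over all genes, and 9 of them (28.1%) were above the 90th percentile of all genes: Dlk1 (104%), Meg3 (97.2%), Mest (89.0%), Igf2 (88.9%), Zim1 (85.6%), Asb4 (85.2%), Rian (76.5%), Mirg (75.8%) and Cdkn1c (63.0%). Blcap (16.8%), Ube3a (20.3%) and Kcnq1ot1 (20.7%) varied least. Over the 9 clones, which hold 3 genotypes, with libraries of the same clone summed, the rho between the stages had a median of -0.03 over the members and 0.05 over all genes. Taken as deviations from the mean of their genotype and stage, the members' levels in a clone correlated between the stages at 0.12 to 0.61 in 8 of 9 clones and at -0.34 in P2-CTCF-KO E9.1, against -0.08 to 0.21 over 9170 genes. Part of the spread lay within clones. The first HPC library of D2.1 was more than 2-fold above the second for 11 of 27 members (12.5% of genes), that of B9.3 for 9 (9.19%) and that of D10.1 for 6 (9.997%), and no member was more than 2-fold below in any of the 3.

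Compared per kilobase of span, since counts run over exons and introns, Peg10 (8.58 CPM per kb), Igf2 (7.84) and Peg3 (2.81) had the highest mean levels of the members in WT mesoderm, followed by Mest (1.74) and Phlda2 (1.21). In undifferentiated mESCs Peg10 led (3.19 CPM per kb), followed by Mirg (0.747) and Rian (0.690), and Igf2 was at 0.0354. In WT HPCs Igf2 (1.38 CPM per kb) led by way of its first B9.3 library, followed by Peg10 (0.865). In P2-CTCF-KO mesoderm Peg10 (7.09 CPM per kb), Peg3 (3.34) and Phlda2 (2.19) stood above Igf2 (1.14). In WT mesoderm the SDs of Peg10 and Igf2 overlapped, as did those of Igf2 and Peg3, Peg3 and Mest, and Mest and Phlda2.

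Open chromatin and CTCF were read from 3 lists of peak positions, without heights or replicates. The ATAC-seq lists came from a Venus reporter line of E14-TG2a carrying an added Runx1 enhancer, with 76766 peaks from 4 merged mesoderm libraries and 29037 from 2 merged HPC libraries, so their lengths differ with depth as well as with stage. The CTCF list, 44513 peaks, came from 416B cells, a myeloid progenitor line of (C57BL/6xDBA/2)F1 origin, not from the cells of the RNA data. Within 1 kb of the annotated start, 28 of 50 members (56.0%, against 55.2% of 24961 genes) had a mesoderm peak, 20 (40.0%, against 37.1%) an HPC peak and 4 (8%, against 12.8%) a CTCF peak. Members were therefore close to all genes in each list. Both ATAC lists had a peak for 17 members, mesoderm alone for 11, HPCs alone for 3 and neither for 19, against 36.1%, 19.1%, 1.01% and 43.8% of all genes. The 3 were Peg10 and Sgce, which share a peak 580 bp past the start of Peg10, and Impact. The 11 with a mesoderm peak alone included Phlda2, whose start is printed above and which had no count in HPCs. Of these 11, Phlda2, Cdkn1c, Begain and Ppp1r9a were called lower in WT HPCs, H13, Gnas, Copg2, Cd81 and Grb10 were not called in WT, and Ascl2 and Dio3 were not tested. At Airn the HPC peak lay across the start, 24 bp before it at its middle, whereas the middle of the nearest mesoderm peak was at -772 bp. Kcnq1ot1 and Trappc9 had peaks across the start in both lists. No CTCF peak lay within 5 kb of H19, and the members with one within 1 kb were H13, Asb4, Magel2 and Commd1.

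The Peg3 and Usp29 starts lie side by side and share 4 mesoderm ATAC peaks, 5 HPC ATAC peaks and 1 CTCF peak within 5 kb, all but the peaks at the starts in an intron of Peg3. The YY1 letters AAGATGGC, searched on both strands, occurred in the 300-base window of every one of the intronic peaks, 1 to 3 times, some of these windows overlapping, and in none of the windows at the starts. They occurred in 2.33% of all mesoderm, 2.52% of all HPC and 3.43% of all CTCF windows of that length. The CTCF letters GGNGGCAG occurred in none of the Peg3 windows, the CTCF peak of 207 bp included, and in 14.5%, 14.1% and 16.9% of the windows of the 3 lists. The intronic peak whose sequence is printed second was listed in HPCs alone, while Peg3 and Usp29 RNA was lower in HPCs. Both matches in its window lie outside the peak itself. A match of letters is a description of the sequence and not of binding.

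**Figure D5:**
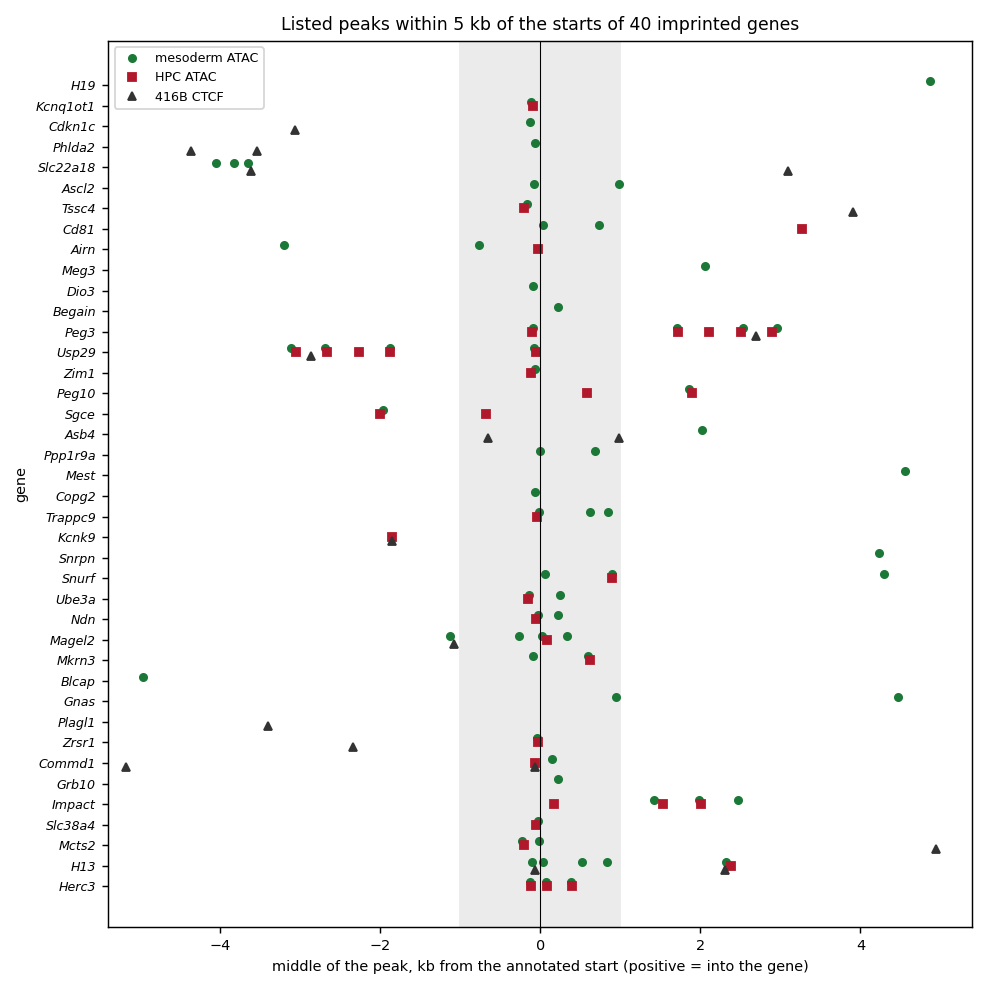
Middles of the listed peaks that overlap the 5 kb on either side of the annotated start of 40 members, in kb from the start and positive into the gene, for mesoderm ATAC (green circles), HPC ATAC (red squares) and 416B CTCF (black triangles). The grey band is 1 kb on either side, in which 28 of 50 members have a mesoderm peak and 4 a CTCF peak, and the series of peaks inside Peg3 is seen again on the other side of the Usp29 start.

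A list of 15 genes known to maintain or establish imprints was read from the same fits. From mESCs to WT mesoderm 5 of 14 tested were called lower (13.7% of all genes) and none higher (10.7%): the DNA methyltransferase gene Dnmt3b (-2.43, SE 0.39, adjusted p = 0.00121), its cofactor Dnmt3l (3.53 and 4.57 CPM in mESCs, no count in WT mesoderm, adjusted p = 0.000446), the zinc finger gene Zfp57 that binds methylated imprinting control regions (-2.31, SE 0.46, adjusted p = 0.00411), the Polycomb gene Eed (-1.70, SE 0.34, adjusted p = 0.00424) and the helicase gene Hells (-1.28, SE 0.21, adjusted p = 0.00139). From mesoderm to HPCs Zfp57 fell in WT (-2.96, SE 0.69, adjusted p = 0.00811), P1-CTCF-KO (-4.51) and P2-CTCF-KO (-2.33), and so did Trim28, the corepressor that Zfp57 recruits, in WT (-1.81, SE 0.23, adjusted p = 0.000177), P1-CTCF-KO (-2.09) and P2-CTCF-KO (-1.94). Uhrf1 (-1.21) in P1-CTCF-KO and Dnmt3b (-1.77) in P2-CTCF-KO were also called lower, and the methyltransferase gene Dnmt3a (1.33) in P1-CTCF-KO higher. Dnmt1, which copies methylation at replication, had 17.6 to 21.8 CPM in mESCs and mesoderm and 10.9 to 20.5 CPM in HPCs and was not called. None of the list was called between genotypes with edgeR.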

How the data were processed

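RNA without a poly(A) tail was converted to directional libraries. Per the labels and methods, the authors aligned the reads to mm9 with STAR, removed duplicates with picard, and counted reads over exons and introns with featureCounts. The deposited table holds raw counts per gene in whole numbers. The strand setting of the counting is not given in the sources used here. The deposited peak lists hold positions only, called with MACS2 on merged ATAC-seq libraries and on merged CTCF ChIP-seq against input. The 2 undifferentiated libraries differ in depth and are technical replicates, so the spread in comparisons with them is partly technical.

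The members and gene lists were chosen with earlier results of these data known. Counts were fitted with edgeR 4.0.16 in R 4.3.3 (quasi-likelihood, TMM factors, filterByExpr with a minimum count of 10), separately for the 9 WT, the 9 mesoderm, the 12 HPC and the 21 mesoderm and HPC libraries, and p-values were adjusted by Benjamini-Hochberg over all genes tested. CPM used TMM factors over 23 libraries with the ribosomal entries in the library size. Intervals and floors (3 counts per library, 95% exact) cover counting error only. Clones carry the same name in mesoderm and HPCs, which pairs these libraries. The deviations of a clone from its group correlated between stages at -0.08 to 0.21 over 9170 genes and at -0.34 to 0.61 over the members (over 0.1 in 8 of 9 clones), and 5 of 9 clones matched themselves best. By rule, values were given in full for members called in a WT step or between genotypes and for noncoding RNAs that passed the filter, and other members named with values were chosen after these were seen. Motif letters were searched in mm9 windows of 300 bp at peak middles, read with samtools 1.23.1, and exons and introns were taken from the GENCODE annotation of that build. Alternatives were DESeq2 1.42.0, other size factors, no filter, 1 fit of all libraries, ribosomal entries left out, libraries of a clone summed, the clone block and leaving out each library. The scripts were tested on simulated data.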

Additional observations from a re-analysis of the deposited data

Results flagged for a closer look

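Single libraries stood apart for 11 members in HPCs, by the ratio of the gap to the nearest library to the range of the group. No share over all genes is given for this rule, so it does not show a trait of the members. The same libraries differed over all genes as well. The first library was more than 2-fold above the second for 9.19% of genes in B9.3, 12.5% in D2.1 and 9.997% in D10.1. Chance alone marks about 1 in 20 groups where values are independent and normally distributed, and 40 members were examined in 2 groups. The members were read from the same few libraries, so their number cannot be set against that rate. In WT HPCs the library was in each case the first of clone B9.3. Igf2 had 74.1 CPM there against 2.33 to 6.71 CPM in the other 3 libraries, Meg3 7.65 against 0.128 to 0.395 CPM, Rian 18.4 against 0.833 to 1.68 CPM, and Mirg 2.06 against 0.0833 to 0.384 CPM. Peg3 had 28.0 against 4.00 to 7.00 CPM, Zim1 4.29 against 0.197 to 0.333 CPM and Asb4 0.773 against 0 to 0.0833 CPM. In P2-CTCF-KO HPCs the first library of clone D2.1 stood apart for Mirg (0.768 against 0 to 0.194 CPM in the other 4), Peg3 (30.2 against 4.81 to 10.47 CPM), Peg10 (32.7 against 4.44 to 11.9 CPM), Asb4 (3.21 against 0 to 0.528 CPM), Mest (29.9 against 1.06 to 4.85 CPM) and Slc38a4 (8.58 against 0.978 to 2.52 CPM). The first library of D10.1 stood apart for Trappc9, at 38.3 against 14.7 to 19.9 CPM. Mesoderm markers summed to 11.7 CPM in the first B9.3 library and 4.99 CPM in the second, and to 19.5 and 4.01 CPM in those of D2.1. Most of each sum was Kdr (11.2, 4.99, 18.1 and 3.91 CPM). Endothelial markers summed to 15.3 and 12.3 CPM in the B9.3 libraries, and to 46.8 and 6.65 CPM in those of D2.1. The part of these cells in the values was not tested.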

How the results depend on the processing

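Over 1522 refits of the members' fold changes none reversed, 1398 kept their side of the threshold, 108 fell below it and 16 rose above it. The count of members called between P2-CTCF-KO and WT mesoderm, 0 with all libraries, was 9 without the filter on low counts, 1 in a single fit of all 23 libraries and 5 with DESeq2. Between P2-CTCF-KO and P1-CTCF-KO mesoderm it was 8, 1 and 5. The P2-CTCF-KO step minus the WT step, and minus the P1-CTCF-KO step, was called for 1 member without the filter and 1 with DESeq2. With 1 library left out, the count ran from 9 to 23 from mESCs to WT mesoderm, from 11 to 21 from mesoderm to HPCs in WT, from 12 to 18 in P1-CTCF-KO and from 10 to 15 in P2-CTCF-KO. It ran from 0 to 4 between P2-CTCF-KO and WT mesoderm, from 0 to 2 between P2-CTCF-KO and P1-CTCF-KO mesoderm (2 without the WT mesoderm library of B9.3) and from 0 to 1 for each of the 2 differences of steps. In P1-CTCF-KO against WT at either stage, P2-CTCF-KO against WT in HPCs and the P1-CTCF-KO step against WT it stayed at 0. Among HPC ATAC peaks wider than the list median, 13 members had a peak within 1 kb (26.0%, against 27.1% of genes). A CTCF peak within 5 kb was found for 14 (28.0%, against 32.2% of genes). Apart from the windows and peak widths, where fewer or more positions qualify, the cause was not tested. For the counts of calls in this section no share over all genes is given, so they describe the members alone.

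With the clone as a replicate block, 14 members were called from mesoderm to HPCs in WT, 18 in P1-CTCF-KO and 12 in P2-CTCF-KO. Meg3 in P2-CTCF-KO was lost, and 6 members were not tested in the paired WT fit. Igf2, Impact and H13 in WT, Zim1 in P1-CTCF-KO and Copg2 in P2-CTCF-KO were gained, and no other call changed.

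Some calls that were lost in fits with 1 library left out were lost under other settings as well. In the fit of all 23 libraries Begain in WT had an adjusted p of 0.0542. From mESCs to mesoderm, Mest (0.107), Peg10 (0.0949) and Slc38a4 (0.0601) were lost in that fit. Cdkn1c in the same step was lost there and with DESeq2 (up to 0.0861). Meg3 in P1-CTCF-KO was at 0.0507 with ribosomal entries left out. These values are from edgeR or DESeq2, adjusted over all genes. Depth limited the low members most: a library of HPCs had as few as 878966 counts outside ribosomal entries, and members under 1 CPM there rest on a few counts.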
